A study of Mus musculus with 6 samples.

Results

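Fibro/adipogenic progenitors (FAPs) from injured muscle treated with vivo-morpholinos named for polyadenylation sites (pA-VMO) were compared with FAPs from muscle treated with a control vivo-morpholino (control VMO). A vivo-morpholino is an antisense oligomer carrying a delivery group, so that it can enter cells in the living animal and mask a chosen stretch of RNA. The comparison rests on 4 of the 6 arrays of the series, 2 for each treatment, chosen by their titles. Its features were the probe sets with exactly 1 gene symbol, with the brightest probe set taken where a gene had several. That gave 19938 genes, of which 14953 passed a filter on low values and were tested. The filter left out the 4985 genes whose mean over all 6 arrays lay below the 25th percentile, a log2 level of 5.21.

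All cells came from wild-type male mice of the strain labelled C57/Bl6, aged 8 to 12 weeks. The tibialis anterior was injured with 30 µL of 50% glycerol, the oligomer was injected 3 days later, and the cells were isolated after another 2 days. The control group thus carried the injury and an oligomer too, and no uninjured or uninjected group was measured. For every array the cells of 4 mice were combined, so the spread between arrays is a spread between pools and no single animal can be seen. The remaining 2 arrays had cells from muscle that received the 5'ss-VMO, named for a splice site. They entered the fit for the shared estimate of spread and are quoted where the reagents are set side by side.

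FAPs are mesenchymal stromal cells of muscle. They divide after an injury, supply matrix and signals to regenerating fibres, and can turn into fibroblasts or fat cells. Platelet-derived growth factor (PDGF) binds receptors on these cells, and the receptor kinase PDGFRα passes the signal through Ras, PI3-kinase and phospholipase C to immediate early genes and the cell cycle. The title of the series concerns a Pdgfra transcript that ends early at a polyadenylation site within an intron. Masking such a site would be used to lower the share of transcripts that end there.

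The deposited log2 values of all 6 arrays had pairwise correlations from 0.990 to 0.994 over all probe sets. Between replicate arrays the difference had a standard deviation (SD), taken over genes, of 0.13 with control VMO and 0.12 with pA-VMO. The median standard error (SE) of a change was 0.074, and the median change of all tested genes was 0.013 (log2). All changes below are pA-VMO minus control VMO on the log2 scale with n = 2 arrays per group, and adjusted p values are from limma over all tested genes. With so few arrays an exact permutation of the groups cannot give a two-sided p below 0.333.

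Keratocan was the single gene that passed the test. Kera, which encodes a keratan sulfate proteoglycan of the small leucine-rich family that spaces collagen fibrils, lay at 7.97 and 7.71 with control VMO and 6.52 and 6.52 with pA-VMO. Both pA-VMO arrays were below both control arrays and nearly equal. It fell by 1.32 ± 0.12 (SE), which is 2.50-fold lower, with an adjusted p of 0.0232. It was 1 of 14953 genes called, or 0.00669%. On the 5'ss-VMO arrays Kera lay at 6.97 and 7.32, between the other groups. Its 5'ss-VMO change from the same control arrays was -0.69 ± 0.12 (adjusted p = 0.0474), so it was under the threshold with that reagent too. The direct difference between pA-VMO and 5'ss-VMO was -0.63 ± 0.12 (adjusted p = 0.0717). In that direct comparison 9 of the 14953 genes passed, or 0.0602%. The call was lost when any one of the 4 control and pA-VMO arrays was left out (adjusted p from 0.0856 to 0.261), and the change then ran from -1.45 to -1.19. The call was also lost with no filter on low values (adjusted p = 0.134).

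**Figure D1:**
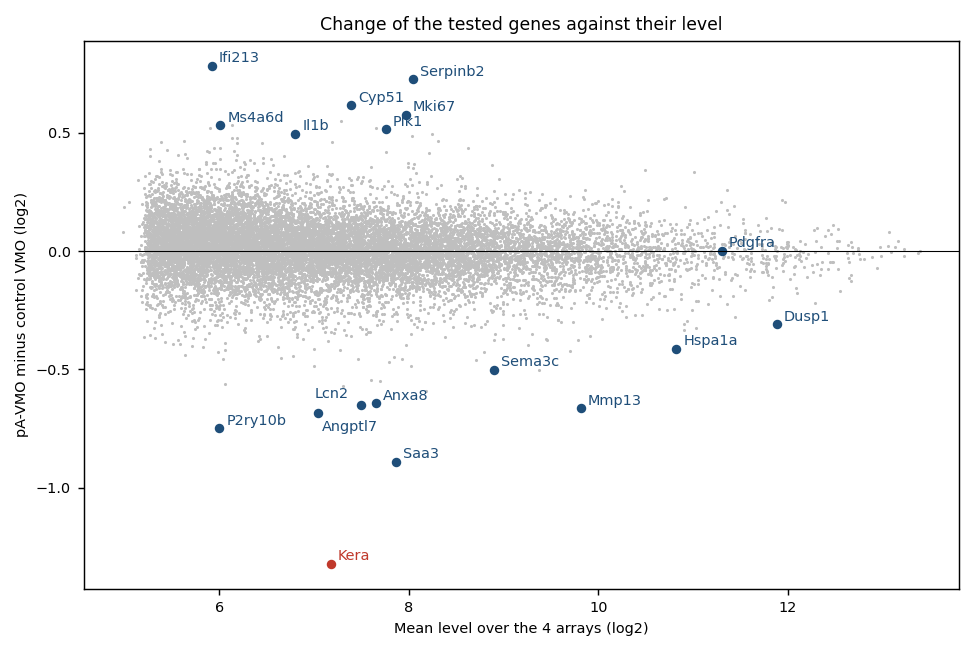
Change between pA-VMO and control VMO (log2) against the mean level over the 4 arrays (log2) for the 14953 tested genes, each a grey point. Kera (red) passed the test at -1.32; the genes in blue are named in the text and did not pass, and Pdgfra lies at a change near 0.

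Beyond Kera, an excess of small p values was spread over many genes of modest change. An unadjusted p under 0.05 was reached by 1712 genes against 747.7 expected if no gene differed, and the smallest adjusted p after Kera was 0.154. Of all tested genes 6.22% were higher and 5.23% lower at that unadjusted level. Both pA-VMO arrays lay above both control arrays for 24.1% of genes and below them for 18.8%, and the change was above 0 for 55.2% and below 0 for 44.8%. These shares are the background for the counts of gene groups that follow, and for all of those counts the number of members passing the adjusted test was 0 except where Kera is a member. When the variance was allowed to follow the level of a gene and outlying variances were down-weighted, 49 genes were called, 13 higher and 36 lower. Those of them named below are marked as called under the trended fit.

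The markers of the stromal label were looked up, but passing the filter could not check that label. Of 23 listed FAP genes 21 were analysed and all 21 passed the filter, as did 14953 of all 19938 genes. All 14 satellite cell and all 15 tendon markers passed too, so this does not tell FAPs from those cells. The collagen gene Col1a1 lay between 13.07 and 13.18 and the decorin gene Dcn between 12.89 and 13.00 over the 4 arrays. In a bulk sample fewer cells of a kind and less RNA per cell cannot be told apart.

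The receptor itself differed between the treatments by less than the arrays of a group did. Pdgfra lay at 11.37 and 11.24 with control VMO and 11.29 and 11.32 with pA-VMO, so the groups overlapped. Its change was 0.00090 ± 0.069, with a 95% interval from -0.16 to 0.16, and its sign turned when each array was centred on its median (-0.023). The value summarises probes along the gene and cannot tell a shortened from a full transcript, so it checks neither the reagent nor the labels.

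Among the other PDGF genes Pdgfd, a ligand that binds mainly PDGFRβ, stood lowest. It lay at 6.76 and 6.88 with control VMO and 6.31 and 6.52 with pA-VMO, without overlap, and its change was -0.41 ± 0.090 (adjusted p = 0.228). The ligand Pdgfa, which acts through PDGFRα, had a change of 0.14 ± 0.064 (adjusted p = 0.461). The receptor Pdgfrb was at 0.091 ± 0.071 (adjusted p = 0.673), and the ligands Pdgfb and Pdgfc were at 0.055 and 0.047 (adjusted p = 0.823 and 0.913). Of the 8 genes tested, 5 had a change above 0 and 3 below. Of 28 genes that relay or dampen the signal, such as adaptors, PI3-kinase subunits, Sprouty proteins and ERK phosphatases, 1 reached an unadjusted p under 0.05, against a background of 6.22% for higher and 5.23% for lower genes. That was Pik3cb, a PI3-kinase subunit, at 0.26 ± 0.10 (adjusted p = 0.393). The median of these 28 genes was -0.0032, with either sign when single arrays were left out.

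Genes of cell division lay above control for nearly every member. Mki67, which encodes the proliferation marker Ki-67, lay at 7.73 and 7.63 with control VMO and 8.20 and 8.31 with pA-VMO. Both pA-VMO arrays exceeded both control arrays by more than the arrays of either group differed, at 0.58 ± 0.10 (adjusted p = 0.204, called under the trended fit). The mitotic kinase gene Plk1 lay at 7.46 and 7.54 with control VMO and 8.10 and 7.93 with pA-VMO, also without overlap, at 0.52 ± 0.12 (adjusted p = 0.244). Fbxo5, an inhibitor of the anaphase-promoting complex, was at 0.48 ± 0.10 (adjusted p = 0.22), the cyclin gene Ccna2 at 0.47 ± 0.14 (adjusted p = 0.307) and the condensin gene Ncapg at 0.38 ± 0.073 (adjusted p = 0.204). Kif11, a motor that separates spindle poles, was at 0.33, Cdk1, the kinase that drives entry into mitosis, at 0.30, and Anln, a scaffold of the cleavage furrow, at 0.41 (adjusted p = 0.243, 0.252 and 0.252). Of 45 genes of G2 and mitosis, 44 had a change above 0, 37 had both pA-VMO arrays above both control arrays and 27 had an unadjusted p under 0.05 with a positive change. Their median was 0.22, and it stayed between 0.19 and 0.26 over 14 other settings of the analysis. With 5'ss-VMO against the same control arrays the median was 0.21, and Mki67 was at 0.57. A difference in this direction was thus not particular to pA-VMO. The mean level of the 45 genes was 6.89 and 6.84 with control VMO and 7.10 and 7.08 with pA-VMO. With 5'ss-VMO it was 6.98 and 7.16, so those arrays lay above control but differed widely from each other.

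Replication genes also lay above control, with a smaller median. Mcm7, a subunit of the helicase that opens replication origins, lay at 6.91 and 7.01 with control VMO and 7.33 and 7.51 with pA-VMO. The groups did not overlap, and the change was 0.46 ± 0.10 (adjusted p = 0.222). Its partners Mcm5, Mcm2 and Mcm6 were at 0.31, 0.29 and 0.24 (adjusted p = 0.278, 0.251 and 0.334). Tyms, which makes thymidylate, was at 0.32, and Rrm2, a ribonucleotide reductase subunit, at 0.23 (adjusted p = 0.304 and 0.31). Of 34 genes of DNA replication 32 had a change above 0, 28 had non-overlapping arrays above control and 14 an unadjusted p under 0.05. Their median was 0.17, and 0.13 with 5'ss-VMO against the same control arrays. The mean level of the 34 genes was 7.11 and 7.09 with control VMO and 7.28 and 7.27 with pA-VMO. On the 5'ss-VMO arrays it was 7.16 and 7.31, again with a wide difference between them. Histone genes that are made in S phase had a median of 0.16, and 7 of 14 were higher at an unadjusted p under 0.05. The linker histone gene H1f1 was at 0.32 ± 0.066 (adjusted p = 0.222, called under the trended fit) and H2bc18 at 0.27 ± 0.072 (adjusted p = 0.263). Histone genes are near-identical copies of each other, so the share of each in these values is uncertain.

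Of 20 regulators of the passage from G1 to S 17 had a change above 0, and 9 were higher and 2 lower at an unadjusted p under 0.05. Skp2, which marks cyclin-dependent kinase inhibitors for degradation, was at 0.30 ± 0.068 (adjusted p = 0.239). The D-type cyclins Ccnd1 and Ccnd2, which start the passage through G1, were at 0.32 and 0.22 (adjusted p = 0.316 and 0.314). The 2 lower members were the transcription factor gene E2f3, a promoter of S phase entry, at -0.22 and Rbl2, a retinoblastoma-like repressor of resting cells, at -0.25 (adjusted p = 0.314 and 0.28). The Ypel genes, which have been linked to resting cells, lay lower for the 4 members named here. Ypel1 was at -0.29 ± 0.083, Ypel2 at -0.25, Ypel4 at -0.24 and Ypel3 at -0.16 (adjusted p = 0.281, 0.353, 0.304 and 0.395). Of 21 inhibitor and quiescence genes 6 had a change above 0, and 7 were lower and 0 higher at an unadjusted p under 0.05. Of 15 genes of DNA repair all 15 had a change above 0 and 3 reached an unadjusted p under 0.05, led by the helicase gene Blm at 0.30 ± 0.075 (adjusted p = 0.251).

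Promoters of these genes are shown because the members of both cell-cycle lists lay above control together and the lists differ in their promoter letters. Sequences are from RefSeq (GRCm38.p6) and cover the 120 bases before the annotated start, 5′ to 3′ on the strand of the gene, with matches to the motifs named for each gene in capitals. In Kif11 (chr19:37376262-37376381, plus strand) and Cdk1 (chr10:69352913-69353032, minus strand) the capitals mark the cell cycle homology region TTTGAA and the CCAAT box on either strand. In Mcm6 (chr1:128359706-128359825, minus strand) they mark E2F motifs only, 2 of which overlap, and CCAAT matches are in lower case.
Kif11: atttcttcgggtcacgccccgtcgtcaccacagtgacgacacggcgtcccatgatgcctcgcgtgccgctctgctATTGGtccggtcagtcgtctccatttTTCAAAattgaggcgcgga
Cdk1: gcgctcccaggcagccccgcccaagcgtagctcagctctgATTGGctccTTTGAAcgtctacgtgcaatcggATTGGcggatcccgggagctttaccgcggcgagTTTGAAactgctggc
Mcm6: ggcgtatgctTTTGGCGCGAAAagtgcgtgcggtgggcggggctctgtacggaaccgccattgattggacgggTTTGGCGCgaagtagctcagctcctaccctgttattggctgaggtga

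Matches were counted from 250 bases before to 50 after a start, on both strands, for members with a promoter in the table. TTTGAA was present for 28 of 38 G2 and mitosis genes, or 73.7%, and for 4 of 29 replication genes, or 13.8%, against 14.3% of the 11784 tested genes with a promoter. The E2F motif, taken as TTTCCCGC, TTTCGCGC, TTTGCCGC or TTTGGCGC, was present for 12 of 29 replication genes, or 41.4%, and for 3 of 38 G2 and mitosis genes, or 7.89%, against 4.16% of tested genes. CCAAT was present for 73.7%, 58.6% and 41.3% in the same order of G2 and mitosis, replication and all tested genes. Among all 32851 promoter windows, 17.9% held TTTGAA, 37.4% CCAAT and 2.26% an E2F motif. These matches describe the promoters and were not measured in the cells.

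**Figure D2:**
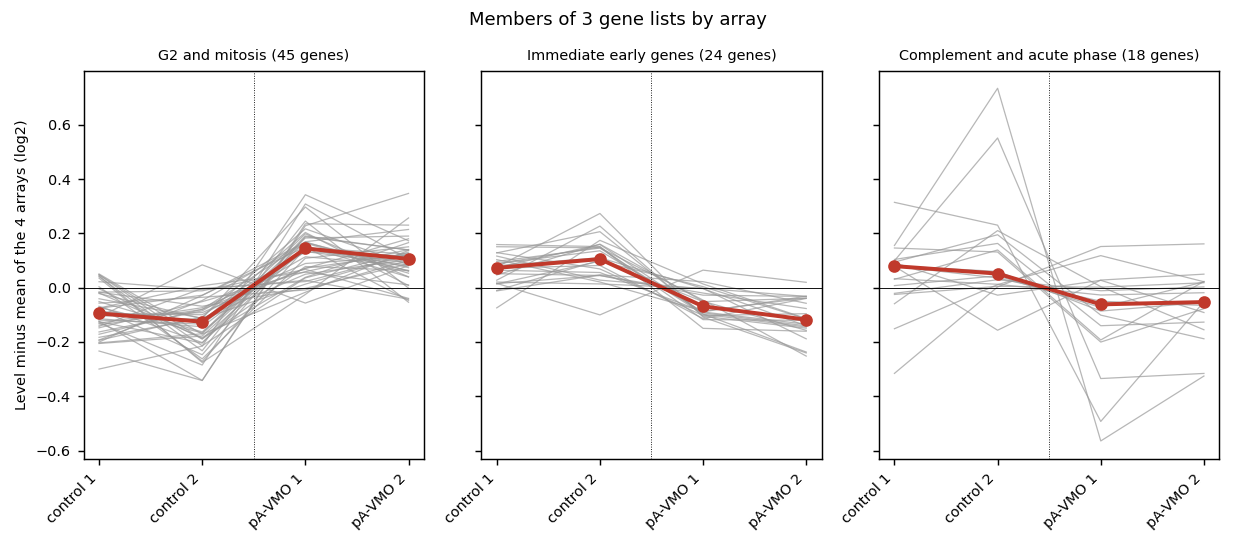
Level of each member of 3 gene lists on the 2 control and 2 pA-VMO arrays, as the difference from the gene's mean over the 4 arrays (log2); grey lines are genes and the red line their median. The median of the 45 G2 and mitosis genes is higher on both pA-VMO arrays, and that of the 24 immediate early genes and 18 complement and acute phase genes is lower on both.

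Immediate early genes stood below control almost without exception. These genes are switched on within minutes of a growth factor or stress signal and encode transcription factors and feedback regulators. Dusp1, a phosphatase that turns off MAP kinases, lay at 12.04 and 12.04 with control VMO and 11.74 and 11.73 with pA-VMO. The pA-VMO arrays were separated from the control arrays by far more than the arrays of a group from each other, at -0.31 ± 0.061 (adjusted p = 0.204, called under the trended fit). Zfp36, which speeds the decay of cytokine mRNAs, lay at 11.03 and 11.11 with control VMO and 10.81 and 10.67 with pA-VMO, also without overlap, at -0.33 ± 0.073 (adjusted p = 0.228, called under the trended fit). The antiproliferative gene Btg2 was at -0.35 ± 0.085 (adjusted p = 0.251) and the AP-1 gene Fos at -0.30 ± 0.081 (adjusted p = 0.267). Its partners Jund and Jun were at -0.23 and -0.22, Nr4a1, an orphan nuclear receptor, at -0.24, Ier2 at -0.24, the stress factor Atf3 at -0.25 and the zinc finger factor Egr1 at -0.19. Their adjusted p values ran from 0.264 for Ier2 to 0.396 for Egr1.

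As a group, 23 of 24 immediate early genes had a change below 0, where 44.8% of all genes did. Both pA-VMO arrays lay below both control arrays for 21 of them, and 13 had an unadjusted p under 0.05 with a negative change. The median was -0.17, and without any single control or pA-VMO array it stayed between -0.20 and -0.15. The mean level of the 24 genes was 10.23 and 10.28 with control VMO and 10.11 and 10.06 with pA-VMO. It was 10.26 and 10.30 with 5'ss-VMO, close to the control arrays, while no member passed the direct test between the reagents (lowest adjusted p = 0.0684).

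Several chaperone genes lay below control as well. Hspa1a, a stress-inducible heat shock protein, lay at 11.03 and 11.04 with control VMO and 10.66 and 10.58 with pA-VMO, without overlap, at -0.41 ± 0.070 (adjusted p = 0.204, called under the trended fit). Its co-chaperone genes Dnajb1 and Dnaja1 were at -0.27 and -0.22 (adjusted p = 0.314 and 0.31), and the small heat shock protein gene Hspb1 at -0.24 (adjusted p = 0.314). Of 26 chaperone genes 9 were lower and 1 higher at an unadjusted p under 0.05; the higher one was Fkbp4, a co-chaperone of steroid receptors, at 0.18 (adjusted p = 0.385). The median of the group was -0.10, and -0.033 without pA-VMO replicate 1.

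Acute phase and complement genes held the largest difference after Kera among tested genes. Saa3, an acute phase serum amyloid gene, lay at 8.02 and 8.60 with control VMO and 7.30 and 7.54 with pA-VMO. The groups did not overlap, although the control arrays themselves differed by much of the change, which was -0.89 ± 0.16 (adjusted p = 0.204). On the 5'ss-VMO arrays it lay at 8.78 and 8.93, above every other array of the series, and the direct difference of pA-VMO from 5'ss-VMO was -1.43 ± 0.16 (adjusted p = 0.0249). Lcn2, the iron-carrier binding protein lipocalin 2, lay at 7.60 and 8.05 with control VMO and 7.16 and 7.18 with pA-VMO, at -0.65 ± 0.13 (adjusted p = 0.204, called under the trended fit). The terminal complement gene C7 was at -0.54 ± 0.13 (adjusted p = 0.239). Lbp, which presents lipopolysaccharide to its receptor, was at -0.28 (adjusted p = 0.251, called under the trended fit), and the complement proteases C1ra and C2 were at -0.29 and -0.27 (adjusted p = 0.251 and 0.251). Of 18 genes 6 were lower and 1 higher at an unadjusted p under 0.05, and the median was -0.13. The higher one was C3ar1, the receptor for complement C3a found on myeloid cells, at 0.31 (adjusted p = 0.316).

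**Figure D3:**
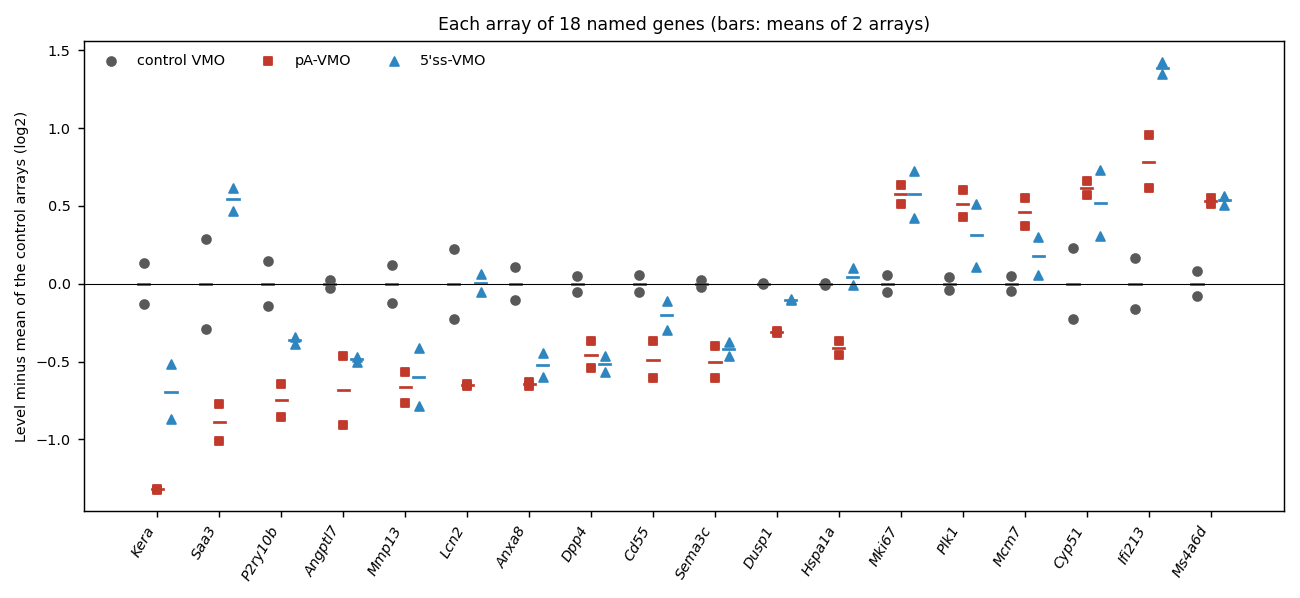
Level of 18 named genes on each array as the difference from the mean of the 2 control arrays (log2): circles control VMO, squares pA-VMO, triangles 5'ss-VMO, bars the mean of the 2 arrays of a group. Kera lies at -1.32 on both pA-VMO arrays. Saa3 lies below control with pA-VMO and above it with 5'ss-VMO. No gene shown overlaps between pA-VMO and control arrays, which for many of the 18 was a condition of being named.

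Tendon and matrix genes other than Kera differed by smaller amounts. Comp, a matrix protein of cartilage and tendon that binds collagen, lay at 9.64 and 9.66 with control VMO and 9.27 and 9.29 with pA-VMO, without overlap, at -0.38 ± 0.065 (adjusted p = 0.204, called under the trended fit). Tnmd, a membrane glycoprotein of tendon, lay at 8.38 and 8.78 on the pA-VMO arrays. Both were below both control arrays but differed widely from each other, and the change was -0.43 ± 0.19 (adjusted p = 0.432). Fibin, a secreted protein, was at -0.26 ± 0.079 (adjusted p = 0.297). The tendon transcription factor genes Scx and Mkx were at 0.075 and 0.080 (adjusted p = 0.752 and 0.797), above rather than below control. Of 15 tendon markers 5 were lower and 0 higher at an unadjusted p under 0.05, and the median was -0.036. The 5 were Kera, Comp, Fibin, Tnmd and Egr1, which is also an immediate early gene. Without pA-VMO replicate 1 the median was -0.0062.

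The small leucine-rich family to which Kera belongs showed differences of a lesser size. Lum, which like Kera carries keratan sulfate and binds collagen, lay at 11.94 and 11.92 with control VMO and 11.73 and 11.75 with pA-VMO, at -0.19 ± 0.062 (adjusted p = 0.314). Ecm2 was at -0.17 and Fmod, fibromodulin, at 0.13 (adjusted p = 0.389 and 0.58). Decorin and biglycan, the Dcn and Bgn genes, were at -0.072 and 0.0099 (adjusted p = 0.709 and 0.975). Of 14 members 11 had a change below 0, 3 had an unadjusted p under 0.05 with a negative change, and the median was -0.094. Without control replicate 1 that median was -0.035, and without control replicate 2 it was -0.16. Of 21 collagens 15 had a change above 0 and 1 an unadjusted p under 0.05, with a median of 0.016, next to the 0.013 of all tested genes and -0.013 without control replicate 2. That member was Col8a1, a short-chain collagen, at 0.23 ± 0.064 (adjusted p = 0.281). Tnc, the matrix glycoprotein tenascin C, was at 0.21 (adjusted p = 0.304).

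Of 24 genes for matrix proteases and their inhibitors 5 were lower and 2 higher at an unadjusted p under 0.05. Mmp13, a collagenase, lay at 10.27 and 10.03 with control VMO and 9.38 and 9.58 with pA-VMO, without overlap, at -0.67 ± 0.13 (adjusted p = 0.204). The stromelysin genes Mmp11 and Mmp3 were at -0.35 ± 0.065 and -0.36 ± 0.12 (adjusted p = 0.204 and 0.337), the first called under the trended fit. Fap, a serine protease on the surface of activated fibroblasts, was at -0.42 ± 0.090 (adjusted p = 0.227, called under the trended fit). The inhibitor gene Timp3 lay on the other side at 0.24 (adjusted p = 0.35). Tgfbi, a secreted adhesion protein induced by TGF-β, lay at 11.22 and 11.16 with control VMO and 10.89 and 10.83 with pA-VMO, without overlap, at -0.33 ± 0.065 (adjusted p = 0.204, called under the trended fit). Of 25 genes of the TGF-β pathway 2 were higher and 3 lower at an unadjusted p under 0.05, with a median of -0.020 that turned to 0.027 without control replicate 1.

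The FAP list of 21 genes was mixed, with 14 members below and 7 above a change of 0. Its members with the smallest p values all lay below control. Dpp4, a surface peptidase of stromal progenitors, lay at 7.74 and 7.64 with control VMO and 7.15 and 7.32 with pA-VMO, without overlap, at -0.45 ± 0.082 (adjusted p = 0.204, called under the trended fit). With 5'ss-VMO against the same control arrays Dpp4 was at -0.52 and passed the test (adjusted p = 0.0318). Cd55, a complement inhibitor found on the same cells, lay at 8.32 and 8.21 with control VMO and 7.66 and 7.89 with pA-VMO, at -0.49 ± 0.10 (adjusted p = 0.204, called under the trended fit). Clec3b, the plasminogen-binding tetranectin, was at -0.31, and the stem and stromal cell sialomucin Cd34 at -0.25 (adjusted p = 0.231 and 0.284). Pi16, a peptidase inhibitor gene found on the same cells, was at -0.17 (adjusted p = 0.476). In the whole list 5 genes, these first 4 and Lum, were lower and 0 higher at an unadjusted p under 0.05, and the median was -0.072.

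Several secreted signals of FAPs also lay below control, although their families were split. Of 29 semaphorin and guidance genes 17 had a change above 0, and 3 were higher and 3 lower at an unadjusted p under 0.05. The highest was Slit2 at 0.35. Of 23 Wnt antagonists and targets 1 was higher, Frzb at 0.24 (adjusted p = 0.284), and 2 were lower at that level. Of 33 cytokine and chemokine genes 17 had a change above 0 and 16 below. Sema3c, a guidance protein of the semaphorin family, lay at 9.17 and 9.13 with control VMO and 8.54 and 8.75 with pA-VMO, without overlap, at -0.50 ± 0.081 (adjusted p = 0.204, called under the trended fit), and Sema3d was at -0.40 ± 0.088 (adjusted p = 0.228). Gdf10, a ligand of the TGF-β superfamily, was at -0.37 ± 0.083 (adjusted p = 0.228), and Sfrp4, a secreted Wnt inhibitor, at -0.50 ± 0.11 (adjusted p = 0.228); both were called under the trended fit. Angptl7, an angiopoietin-like matrix protein, lay at 7.36 and 7.41 with control VMO and 6.48 and 6.92 with pA-VMO, at -0.69 ± 0.12 (adjusted p = 0.204, called under the trended fit), and Cxcl13, a B cell chemokine, lay at 8.47 and 8.50 with control VMO and 7.62 and 8.16 with pA-VMO, at -0.59 ± 0.14 (adjusted p = 0.251). Both passed the test when pA-VMO replicate 2 was left out (adjusted p = 0.0294 and 0.0294), a fit in which the remaining pA-VMO array was assumed to vary like the other groups.

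The C1q/TNF-related genes, secreted relatives of adiponectin, had 6 of 7 tested members with a change below 0 and a median of -0.23. C1qtnf1 lay at 8.11 and 8.03 with control VMO and 7.58 and 7.67 with pA-VMO, without overlap, at -0.45 ± 0.071 (adjusted p = 0.204, called under the trended fit). C1qtnf2, C1qtnf7 and C1qtnf6 were at -0.32, -0.26 and -0.23 (adjusted p = 0.251, 0.314 and 0.317), while C1qtnf4 was at 0.16 (adjusted p = 0.43). Of genes outside these groups, Anxa8, a calcium-dependent membrane-binding annexin, lay at 8.08 and 7.87 with control VMO and 7.34 and 7.32 with pA-VMO, at -0.64 ± 0.087 (adjusted p = 0.154). With 5'ss-VMO against the same control arrays Anxa8 was at -0.52 (adjusted p = 0.0415). P2ry10b, a relative of a lysophospholipid receptor, was at -0.75 ± 0.10, the amylase gene Amy1 at -0.56 ± 0.071, the microtubule-binding gene Clip4 at -0.55 ± 0.080 and the lipid transporter gene Abca6 at -0.57 ± 0.11. Their adjusted p values were 0.154, 0.154, 0.18 and 0.204, and these 5 genes were called under the trended fit.

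**Figure D4:**
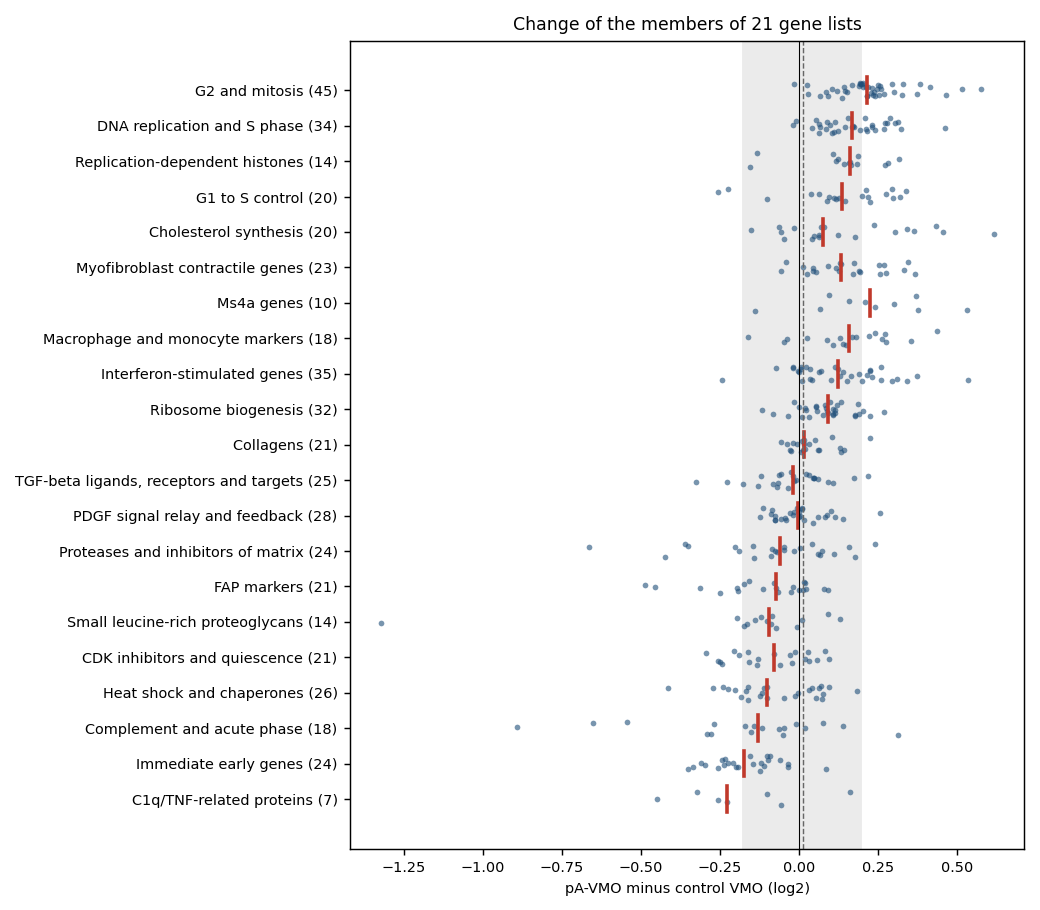
Change between pA-VMO and control VMO (log2) of the tested members (points, number in brackets) of 21 gene lists with their median (red). The grey band runs from the 5th to the 95th percentile of all tested genes and the dashed line is their median of 0.013; G2 and mitosis genes lie at a median of 0.22 and immediate early genes at -0.17.

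Cholesterol synthesis genes were higher for a subset of enzymes. Cyp51, the sterol demethylase, lay at 7.31 and 6.86 with control VMO and 7.75 and 7.65 with pA-VMO. The groups did not overlap, the control arrays differed from each other by much of the change, and the change was 0.62 ± 0.16 (adjusted p = 0.252). Fdps and Idi1, which make isoprenoid precursors, were at 0.46 ± 0.13 and 0.43 ± 0.12 (adjusted p = 0.278 and 0.275). Hmgcs1, an early enzyme of the pathway, was at 0.36 and the sterol carrier gene Stard4 at 0.34 (adjusted p = 0.278 and 0.251). Of 20 genes 7 were higher and 0 lower at an unadjusted p under 0.05, and the median was 0.076. It ran from 0.061 without control replicate 2 to 0.15 without pA-VMO replicate 2. The mean level of the 20 genes was 7.15 and 7.07 with control VMO and 7.29 and 7.24 with pA-VMO. With 5'ss-VMO it was 7.11 and 7.29, the first between the control arrays and the second level with pA-VMO. A CCAAT box, looked up after the values were seen, was found for 16 of 16 members with a promoter in the table, against 41.3% of tested genes.

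Actin cytoskeleton genes of contractile fibroblasts lay above control. Tagln, transgelin, lay at 7.85 and 7.90 with control VMO and 8.14 and 8.34 with pA-VMO, and Acta2, smooth muscle actin, at 10.84 and 10.84 with control VMO and 11.11 and 11.24 with pA-VMO. Neither overlapped, at 0.37 ± 0.12 and 0.33 ± 0.12 (adjusted p = 0.328 and 0.35). The actin cross-linker gene Flna and the non-muscle myosin gene Myh9 were at 0.28 and 0.25 (adjusted p = 0.282 and 0.281). The median of 23 genes was 0.13, and 0.20 with 5'ss-VMO against the same control arrays. Both pA-VMO arrays lay above both control arrays for 17 of them, and 9 were higher at an unadjusted p under 0.05. Ribosome biogenesis genes had a median of 0.091 with 6 of 32 higher at that level, among them Utp20 at 0.27 (adjusted p = 0.269). It was 0.039 without control replicate 2. Of 24 genes of the unfolded protein and amino acid stress responses 4 were higher and 1 lower at an unadjusted p under 0.05. The folate enzyme gene Mthfd2 was at 0.29 and the asparagine synthetase gene Asns at 0.24 (adjusted p = 0.329 and 0.368).

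Of 35 interferon-stimulated genes 30 had a change above 0. Ifi213, a member of the Ifi200 family of DNA sensors, lay at 5.69 and 5.36 with control VMO and 6.14 and 6.48 with pA-VMO, without overlap, at 0.78 ± 0.13 (adjusted p = 0.204, called under the trended fit). On the 5'ss-VMO arrays it lay at 6.95 and 6.88, and the direct difference was -0.60 ± 0.13 (adjusted p = 0.0926). Its relative Ifi206 was at 0.30 ± 0.069 against control and at -0.77 ± 0.069 against 5'ss-VMO (adjusted p = 0.239 and 0.00677). The antiviral genes Oas2, Rnf213, Dhx58 and Bst2 were at 0.37, 0.34, 0.30 and 0.26 (adjusted p = 0.204, 0.204, 0.251 and 0.251), and all but Dhx58 were called under the trended fit. Mx1 lay at 5.65 and 6.08 with control VMO and 6.22 and 6.58 with pA-VMO, at 0.53 ± 0.15 (adjusted p = 0.278). Ifi27 lay on the other side of control, at -0.24 (adjusted p = 0.304). Both Ifi genes first named belong to a list of 17 Ifi200 and guanylate-binding protein genes, of which 11 had a change above 0 and 6 below. In that list 4 were higher and 0 lower at an unadjusted p under 0.05, the median was 0.016 and Ifi202b was lowest at -0.27 (adjusted p = 0.508). Of the 35 interferon-stimulated genes counted at the start of this paragraph, 14 were higher and 1 lower at an unadjusted p under 0.05. Their median was 0.12, and 0.071 without control replicate 1. With 5'ss-VMO against the same control arrays their median was larger, at 0.47. That of the Ifi200 and guanylate-binding protein list was then 0.46.

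Genes of myeloid cells also lay above control. Ms4a6d, a membrane protein gene of macrophages, lay at 5.82 and 5.66 with control VMO and 6.25 and 6.29 with pA-VMO, without overlap, at 0.53 ± 0.074 (adjusted p = 0.154, called under the trended fit). With 5'ss-VMO against the same control arrays Ms4a6d was at 0.54 (adjusted p = 0.0172). Its relatives Ms4a6c and Ms4a4c were at 0.38 and 0.37 (adjusted p = 0.204 and 0.204), and as close paralogs these genes may share probes. The median of the 10 Ms4a genes tested was 0.22, and 0.51 with 5'ss-VMO against the same control arrays. Cd68, a lysosomal protein of macrophages, lay at 7.40 and 7.45 with control VMO and 7.79 and 7.77 with pA-VMO, at 0.35 ± 0.067 (adjusted p = 0.204, called under the trended fit). The lysozyme gene Lyz2 was at 0.44 ± 0.17, with control arrays at 8.10 and 8.72, and the adaptor genes Tyrobp and Fcer1g were at 0.22 and 0.28 (adjusted p = 0.376, 0.313 and 0.406). Il1b, an inflammatory cytokine, was at 0.50 ± 0.11, its antagonist Il1rn at 0.32 and the cytokine receptor chain Csf2rb at 0.48 (adjusted p = 0.235, 0.291 and 0.228).

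Of 18 macrophage and monocyte markers 15 had a change above 0, 6 were higher at an unadjusted p under 0.05 and the median was 0.16. That median was 0.058 without control replicate 1 and 0.25 without control replicate 2. The summed linear level of the 19 markers on the array was 1938 and 2294 with control VMO and 2467 and 2376 with pA-VMO. The pan-leukocyte gene Ptprc went the other way at -0.16 (adjusted p = 0.608), and the monocyte receptor gene Ccr2 was below the filter. The part of these cells in the interferon, Ms4a and cytokine values was not tested.

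The markers of other cells that could be in the preparation stood slightly above control for blood and vessel cells. The summed level of 10 neutrophil markers was 327 and 339 with control VMO and 352 and 371 with pA-VMO, with Cxcr2, Ly6g, Ngp, Retnlg and S100a8 below the filter, and that of 11 lymphocyte markers 419 and 422 with control VMO and 461 and 429 with pA-VMO, with Cd3d, Cd3g, Cd79a, Ms4a1 and Ncr1 below it. Of 12 endothelial markers 3 were higher and 1 lower at an unadjusted p under 0.05. Among these 4 were the junction genes Cdh5 and Pecam1 at 0.29 and 0.28 and the angiopoietin receptor gene Tek at -0.20 (adjusted p = 0.251, 0.308 and 0.382). Of 10 pericyte markers 4 were higher and 1 lower at an unadjusted p under 0.05. Mcam and the receptor gene Notch3 were among the higher ones, at 0.27 and 0.25 (adjusted p = 0.261 and 0.307). Of 8 listed erythroid markers only 3 were analysed, and these had changes above 0, with Alas2, the haem synthesis enzyme of red cells, at 0.23 (adjusted p = 0.287). Alas2 lay at 5.33 and 5.38 with control VMO, close to the filter level. Satellite cell and muscle fibre markers had medians of -0.0089 and 0.0057, and both changed sign when 1 control array was left out. Of 20 adipogenic and lipid droplet genes 2 were higher and 0 lower at an unadjusted p under 0.05, with a median of 0.052. These were Cd36, a fatty acid transporter, and Fabp4, a fatty acid carrier, at 0.46 and 0.33 (adjusted p = 0.251 and 0.295). Cd36 lay at 5.05 and 5.26 with control VMO, close to the filter level of 5.21. The fat-cell genes Adipoq, Lep and Cidea were below the filter, and Cidec was lowest at -0.16 (adjusted p = 0.528).

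**Figure D5:**
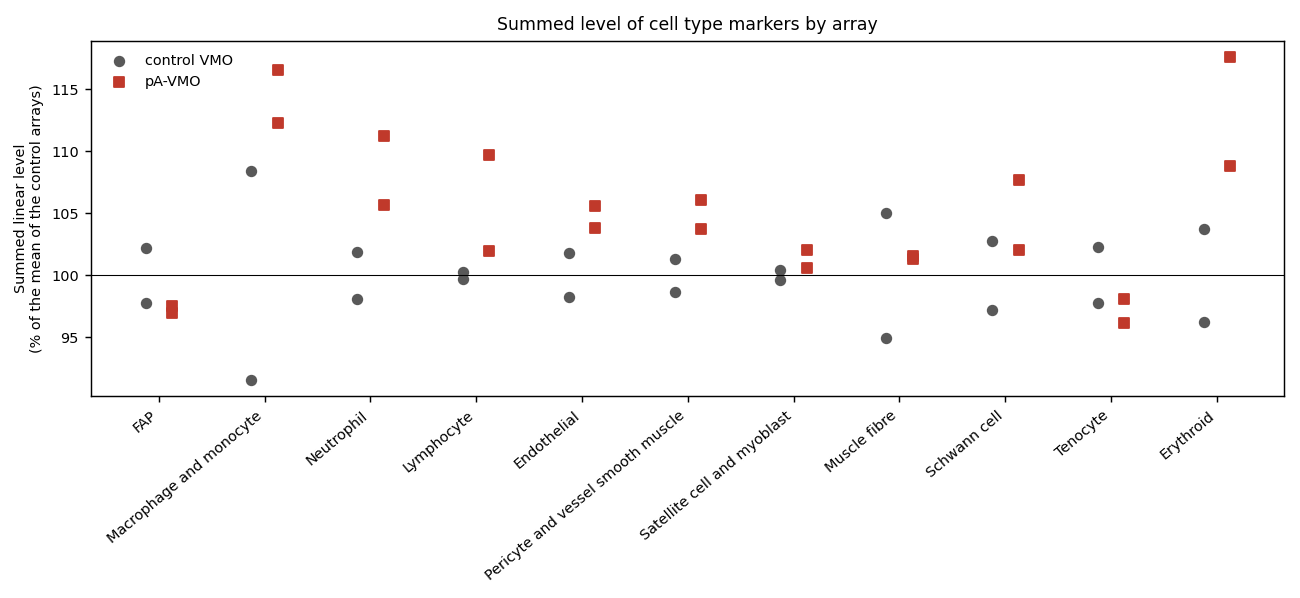
Summed linear level of the markers of 11 cell types on each array, as a percentage of the mean of the 2 control arrays (circles control VMO, squares pA-VMO). Macrophage and monocyte, neutrophil, lymphocyte, endothelial, pericyte and erythroid sums are higher on both pA-VMO arrays than on both control arrays. So are satellite cell sums (3710 and 3740 with control VMO, 3803 and 3748 with pA-VMO), while FAP sums are lower (66415 and 63559 with control VMO, 63025 and 63369 with pA-VMO). For this last pair of cell types, and for several others, the gap between groups is smaller than a difference within a group. Muscle fibre, Schwann and tendon sums overlap.

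Ligands of the bone morphogenetic protein (BMP) family and other cytokines of stromal cells lay below control for several members. Bmp2 was at -0.27 ± 0.070, Bmp4 at -0.20 ± 0.063 and Bmp5 at -0.17 ± 0.069, and Id3, a target gene of the pathway, at -0.19 ± 0.066 (adjusted p = 0.251, 0.315, 0.397 and 0.354). Of 26 genes of this pathway 5, Gdf10 among them, were lower and 0 higher at an unadjusted p under 0.05, with a median of -0.039, or -0.020 without pA-VMO replicate 2. Il6, a cytokine that FAPs make after injury, lay at 10.72 and 10.87 with control VMO and 10.66 and 10.55 with pA-VMO, without overlap, at -0.19 ± 0.078 (adjusted p = 0.403). Il15 and Angptl1 were at -0.23 and -0.22 (adjusted p = 0.357 and 0.372). Of 19 genes for signals of FAPs to muscle stem cells 6 were lower and 1 higher at that level, with a median of -0.066. It was -0.12 without control replicate 1 and -0.020 without control replicate 2. The chemokine genes Cxcl2 and Cxcl9 stood on opposite sides of control, at -0.31 and 0.21 (adjusted p = 0.31 and 0.313).

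Genes of the machinery that cuts and polyadenylates transcripts, and of the U1 particle that protects them from early ends, were near control. Of 27 such genes 2 were higher and 0 lower at an unadjusted p under 0.05, with a median of 0.048. Without pA-VMO replicate 2 the median was 0.025. The 2 genes encode U1 proteins, Snrpa at 0.19 ± 0.070 and Snrnp70 at 0.16 ± 0.064 (adjusted p = 0.372 and 0.395). Of 18 sensors of foreign nucleic acid 6 were higher and 1 lower at an unadjusted p under 0.05. The endosomal receptors Tlr9 and Tlr13 were among the higher ones, at 0.19 and 0.30 (adjusted p = 0.354 and 0.406). The lower one was the adaptor gene Myd88 at -0.15 (adjusted p = 0.412). Cgas had the lowest change of the 18, at -0.21, without reaching that level. Dhx58 and Oas2, given above, belong to this list as well.

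Further differences above control were found in genes of no list. Serpinb2, an inhibitor of plasminogen activators, lay at 7.91 and 7.44 with control VMO and 8.21 and 8.60 with pA-VMO, at 0.73 ± 0.18 (adjusted p = 0.251). Ptprn, a membrane protein of secretory granules, lay at 7.47 and 7.33 with control VMO and 7.97 and 7.87 with pA-VMO, at 0.52 ± 0.10 (adjusted p = 0.204). With 5'ss-VMO against the same control arrays Ptprn was at 0.58 (adjusted p = 0.0386). Aldh1a3, which makes retinoic acid, lay at 7.72 and 7.86 with control VMO and 8.18 and 8.37 with pA-VMO, at 0.49 ± 0.094 (adjusted p = 0.204). These 3 genes were named by a rule that required groups without overlap, and the last 2 were called under the trended fit. The defensin gene Defb35 and Tmem267 were at 0.52 and 0.50 (adjusted p = 0.251 and 0.251).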

How the data were processed

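RNA of FAPs was measured on Affymetrix Mouse Gene 1.0 ST arrays from 100 ng of total RNA. The deposited log2 values came from Expression Console with RMA, per the submitters' processing notes. They are brightness on a relative scale, so levels of different genes were not compared. Of 35556 probe sets 21789 had 1 gene symbol, 1621 several and 12146 none. The build behind the probe annotation is not given in the sources used here. A linear model over all 6 arrays, with 3 residual and 6.06 prior degrees of freedom, was fitted with limma 3.58.1 in R 4.3.3, with empirical Bayes moderation and Benjamini-Hochberg adjustment (threshold 0.05). The code was tested on simulated data. Labels do not say which mice shared an injection or isolation, so p-values measure the spread between pools. The 55 gene lists and the members were chosen with earlier results of these data known. Named genes were Pdgfra, called genes, the 15 largest non-overlapping changes in each direction with an unadjusted p under 0.05, the 6 members of each list with the smallest p, and cell type markers; Anln, Atf3, Bgn, C3ar1, Dcn, Fkbp4, Jun, Mkx, Nr4a1, Pdgfc, Ptprc and Scx fell outside this rule and were chosen after their values were seen. Replicate numbers did not pair the samples (correlation of same-numbered deviations, control against pA-VMO, -0.10). Alternatives were other filters, variance models, arrays, blocks, scalings and probe set rules.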

Additional observations from a re-analysis of the deposited data

Results flagged for a closer look

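The direct comparison of pA-VMO with 5'ss-VMO separated 3 named genes in which the reagents differed from each other (limma, adjusted over all tested genes, n = 2 arrays per group). Saa3, the acute phase serum amyloid gene, differed by -1.43 (log2, pA-VMO minus 5'ss-VMO), with an adjusted p of 0.0249, and the arrays of the groups did not overlap. Ifi206, of the Ifi200 family, differed by -0.77 (adjusted p = 0.00677) and Ms4a4c, a macrophage membrane protein gene, by -0.65 (adjusted p = 0.0249), again without overlap between the arrays. Against control VMO, pA-VMO gave -0.89 for Saa3, 0.30 for Ifi206 and 0.37 for Ms4a4c, while 5'ss-VMO gave 0.54, 1.06 and 1.02. Both of these comparisons use the same control arrays.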

How the results depend on the processing

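One gene, Kera, passed the test. The count was 0 with no filter on low values, where Kera kept its change of -1.32, and 0 over all probe sets of the table. It was 49 with a trended, robust variance. With a replicate block it was 1, and the block changed no call of a named gene. With the pA-VMO numbers crossed, a pairing chosen after seeing the data, it was 5. Leaving out 1 control or pA-VMO array gave 0 to 2 genes and a Kera change from -1.45 to -1.19, and none of these fits called Kera. In each of them the lone array is assumed to vary like the other groups. The count at an unadjusted p under 0.05 ran from 1273 without pA-VMO replicate 2 to 1888 with no filter, and was 1340, 1531 and 1317 without control replicate 1, control replicate 2 and pA-VMO replicate 1. Small changes turned sign. Pdgfra lay at -0.023 with arrays centred on their median and -0.0041 after quantile normalization, and between -0.064 and 0.066 without single arrays. Bgn lay at -0.014 when centred and between -0.037 and 0.057 without single arrays. The ranges were -0.016 to 0.13 for Pdgfb and -0.071 to 0.16 for Pdgfc. No other named gene turned sign. Of 55 list medians 36 kept their sign in every alternative that gave a value, which was 14 for 33 lists and 13 for 3, the neutrophil, lymphocyte and erythroid markers. Signal near the array background limits genes below the filter, and 2 arrays per group limit the precision of every value.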

Other observations

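Genes of lipid synthesis other than the sterol enzymes were split. Fasn, fatty acid synthase, was at 0.17 ± 0.069, while the desaturase genes Scd1 and Fads2 were at -0.30 ± 0.076 and -0.24 ± 0.065 (adjusted p = 0.395, 0.251 and 0.267; limma, n = 2 arrays per group). Of 14 genes of fatty acid synthesis 1 was higher and 2 lower at an unadjusted p under 0.05. Among 15 targets of the growth-arrest factor p53, 11 had a change below 0, where 44.8% of all tested genes did. Their median was -0.053, and 0.0063 without control replicate 1. The lowest was Btg2 at -0.35, which is also counted among the immediate early genes. Trp53inp1, an autophagy gene, was at -0.26 ± 0.067 and the nuclease gene Aen at 0.21 ± 0.086 (adjusted p = 0.252 and 0.405). Genes of mitochondrial respiration had a median of 0.053, those of glycolysis and the hypoxia response 0.0092 and those of the oxidative stress response -0.022; the last pair changed sign when 1 control array was left out. The first was 0.033 without control replicate 2.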
